A study of Homo sapiens with 8 samples.

Results

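MFSD2A and the lysophospholipid acyltransferase genes LPCAT1, LPCAT2, LPCAT3, LPCAT4, MBOAT1, MBOAT2 and MBOAT7 were followed through RNA sequencing of MOLM13, an established human acute myeloid leukaemia cell line. These 8 genes were taken by symbol from a table of 35370 rows, and all 8 were in it. The 4 groups had 2 libraries each. Rescue cells were labelled as IGF2BP2 rescue, mutant rescue cells as rescued with a mutant of IGF2BP2, and knockdown cells as IGF2BP2 knockdown by a hairpin (sh), while control cells carried the genotype label WT. IGF2BP2 encodes a reader protein for N6-methyladenosine (m6A) marks on RNA, and PRMT6 and MFSD2A are named with it in the title of the series. All cells were of this cell line, cells were infected with virus, and puromycin was added where selection was needed, per the labels' protocols. The labels give neither the mutation nor the number of hairpins or clones, and they leave unsaid which vector, if any, the control and knockdown cells carried. Whether replicates came from separate cultures is also unsaid. The p-values therefore measure only the spread between the libraries, and that spread may be technical.

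Cells take up lysophospholipids, which carry only a single fatty acid, and attach a second fatty acid to rebuild a full membrane phospholipid. MFSD2A is a sodium-dependent transporter that brings lysophosphatidylcholine, often carrying docosahexaenoic acid, across the plasma membrane, and it is best known from the blood-brain barrier. The LPCAT and MBOAT enzymes do the second step, and together with phospholipases, which remove fatty acids, they exchange the acyl chains of membranes in what is called the Lands cycle. LPCAT3, MBOAT1, MBOAT2 and MBOAT7 belong to the membrane-bound O-acyltransferase family, and LPCAT1, LPCAT2 and LPCAT4 to the family of the acylglycerolphosphate acyltransferases.

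The DNA just before the first exon is shown for MFSD2A, the transporter named in the series title, and for LPCAT3, because theirs were the 2 of the 6 matched promoters that held the box CCAAT. Sequences come from the RefSeq promoter table (GRCh38.p14), which covers 250 bases before to 50 after each gene start and matched 6 of the 8 genes. LPCAT2 and MBOAT1 were not matched. Capitals mark CCAAT or its reverse complement ATTGG, and each stretch is written 5′ to 3′ on the strand of its gene.
MFSD2A, chr1:39954895-39955111, plus strand: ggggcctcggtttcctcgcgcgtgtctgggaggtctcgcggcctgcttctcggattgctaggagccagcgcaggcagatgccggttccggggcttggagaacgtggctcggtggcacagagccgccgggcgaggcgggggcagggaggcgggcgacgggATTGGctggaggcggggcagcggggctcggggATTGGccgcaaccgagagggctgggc
LPCAT3, chr12:7018511-7018726, minus strand: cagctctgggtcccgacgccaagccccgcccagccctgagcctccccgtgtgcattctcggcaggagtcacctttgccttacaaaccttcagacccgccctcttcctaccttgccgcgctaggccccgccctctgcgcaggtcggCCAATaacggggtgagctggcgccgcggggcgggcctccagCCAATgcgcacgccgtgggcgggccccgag
The MFSD2A stretch of 217 bases had a GC content of 73.3% and held the box 2 times, both as ATTGG. The LPCAT3 stretch of 216 bases had a GC content of 70.8% and held it 2 times as CCAAT, and its whole 300-base window held it 3 times. Of all 35116 promoters listed there, 34.6% held CCAAT on either strand and 10.8% held 2 or more copies. The windows of LPCAT1, LPCAT4, MBOAT2 and MBOAT7 held none. The GC box GGGCGG, searched on both strands, was found 5 times in the LPCAT3 window, 8 times in MBOAT2, 4 times in LPCAT4, 3 times in LPCAT1, 1 time in MBOAT7 and 0 times in MFSD2A, against 45.0% of all promoters that held it at least once. None of the 6 windows held the E-box CACGTG (7.26% of all promoters). These matches describe the letters only.

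The deposited values are log2 levels that the authors normalized across the 8 libraries. They are not divided by gene length, so levels were compared between groups for 1 gene at a time and never between genes, and the read depth behind them is unknown. Orders of libraries are given on this log2 scale, and some differ when levels are taken as ppm of the library's summed linear values. IGF2BP2, the targeted gene, stood at 11.36 and 11.13 in rescue, 11.03 and 10.68 in mutant rescue, 10.24 and 10.25 in knockdown and 10.94 and 10.89 in control (log2), so that the knockdown libraries were the lowest of the 8. The gene-level value cannot part the cell's own transcript from that of a construct. Of 10 leukaemia markers (among them CD33, FLT3 and SPI1) all 10 passed the filter on low values. Markers of other lineages summed to far less in every library than the 1860 to 2440 ppm of these leukaemia markers. Still, TRAC, PAX5, CDH1, KRT8 and KRT18 among them passed the filter. PAX5, a B cell gene, was higher in rescue than in mutant rescue, knockdown and control. Its log2 differences were 0.70, 0.62 and 0.58, each called in the test described below. Of the 3 epithelial markers tested, 1 was called lower than control in knockdown, 1 in rescue and 2 in mutant rescue. In these comparisons 12.8%, 7.18% and 24.9% of all tested genes were called in either direction. Mutant rescue against knockdown had 1 of the 3 lower, beside 11.3% of all tested genes called. The summed level of 5 T cell markers was 9.27 to 12.9 ppm of the library's summed linear values with CD3E at 0, that of 4 B cell markers 2.59 to 3.98 ppm with MS4A1 at 0, that of 6 erythroid markers 0.156 to 0.189 ppm with HBA1 and HBA2 at 0, that of 5 epithelial markers 7.93 to 12.4 ppm with KRT19 at 0, and that of 5 stromal markers 2.12 to 2.61 ppm with COL3A1 at 0.

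MBOAT7, MFSD2A, LPCAT3 and MBOAT1 passed the test in at least 1 comparison with control. In mutant rescue alone, 24.9% of all tested genes were called against control. MBOAT7 was higher in all 3 manipulated groups than in control, MFSD2A was higher in knockdown, and in mutant rescue LPCAT3 was higher and MBOAT1 lower than in control. MFSD2A, LPCAT3 and MBOAT1 each had differences of 1 sign in all 3 groups against control, whether called or not, so that a call in 1 group only does not show a difference between groups. LPCAT1, LPCAT2 and LPCAT4 passed the test in no comparison, and MBOAT2 was too low to be tested. The test was limma on the log2 values of 13030 genes with at least 1 ppm of the linear total in at least 2 libraries. It used a single spread for the 4 groups, with Benjamini-Hochberg adjustment over all genes and a threshold of 0.05, and 7 of the 8 members passed the filter. In knockdown against control 2 of the 7 were called, both higher, where 12.8% of all tested genes were called in either direction and 5.35% higher. In rescue against control 1 was called, MBOAT7, higher, beside 7.18% of all genes called and 4.91% called higher. In mutant rescue against control 3 were called, 2 higher and 1 lower, beside 24.9% of all genes called, 13.9% higher and 11.0% lower. The count of 3 of 7 is read against that large background, since this comparison called more genes than any other. The 3 comparisons with control share the same 2 control libraries, so their results for a gene are not independent of each other. Nothing was called among the members in rescue against knockdown (4.24% of all genes called), mutant rescue against knockdown (11.3%) or rescue against mutant rescue (10.5%). Unadjusted p-values under 0.05 from limma numbered 1, 3 and 2 in these 3 comparisons, and the authors' deposited table had 0 members at an adjusted p under 0.05 in each. Without mutant rescue replicate 1, mutant rescue differed from knockdown by 0.75 for LPCAT1 and -0.53 for MBOAT1. Rescue then differed from mutant rescue by 0.44 for MBOAT1. That fit has 1 mutant rescue library and called more of all tested genes in both comparisons, so the shares above do not apply to it.

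**Figure D1:**
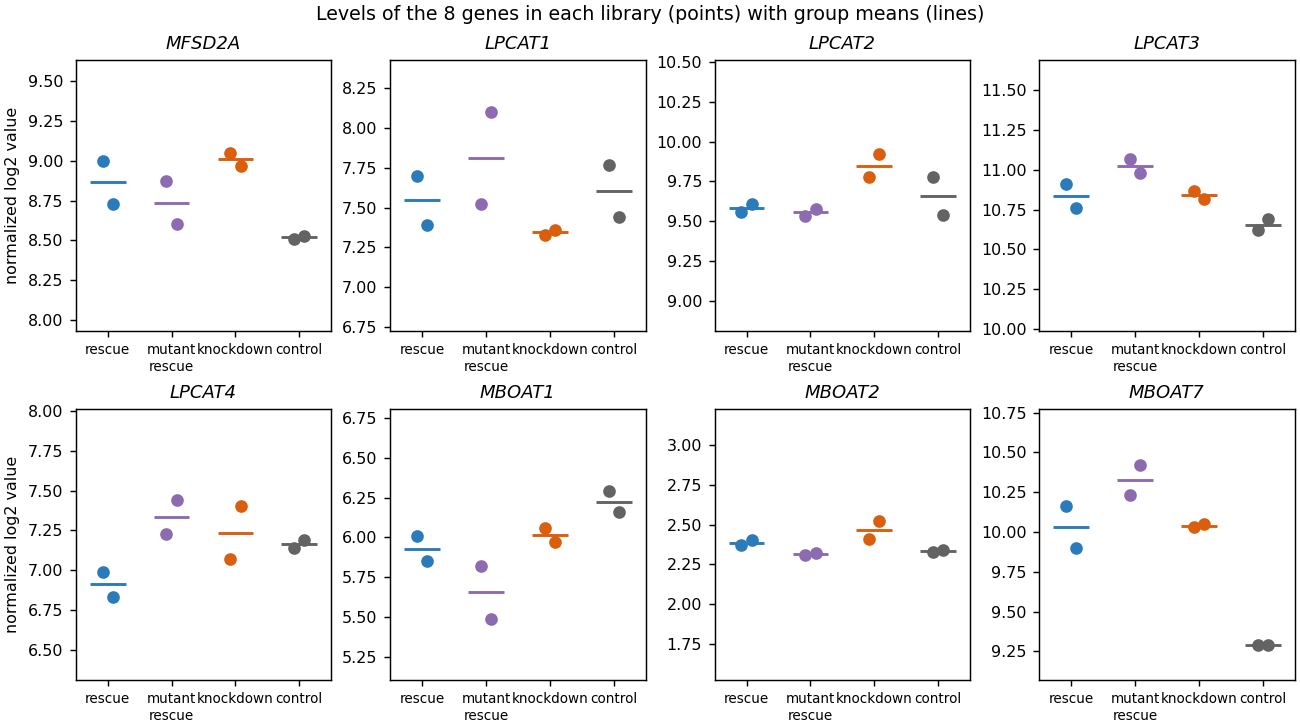
Normalized log2 level of each of the 8 genes in each library (points) with the mean of the 2 libraries of each group (line), for rescue, mutant rescue, knockdown and control. Every panel spans the same length of the log2 axis, and the control libraries of MBOAT7, both at 9.29, lie below its 6 other libraries, at 9.90 to 10.42.

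MBOAT7, also called LPIAT1, attaches arachidonic acid to lysophosphatidylinositol and so shapes the phosphatidylinositol pool of the membrane. The gene lies at chr19:54173412-54189882 (GRCh38, GENCODE v29, minus strand, protein coding). Its log2 level was 10.16 and 9.90 in rescue, 10.23 and 10.42 in mutant rescue, 10.03 and 10.05 in knockdown and 9.29 and 9.29 in control. Every library of the 3 manipulated groups thus lay above both control libraries, and the mutant rescue libraries were above all others. As ppm the control libraries stayed lowest (45.6 and 43.1), but mutant rescue replicate 1 (77.8) lay below knockdown replicate 2 (78.4). Mutant rescue exceeded control by 1.03 on the log2 scale (SE 0.11, 95% interval 0.77 to 1.30, adjusted p = 0.00073), or 2.05-fold. Knockdown exceeded control by 0.75 (SE 0.11, interval 0.48 to 1.01, adjusted p = 0.00624), or 1.68-fold, the increase of rank 210 among the 13030 genes. Rescue exceeded control by 0.74 (SE 0.11, interval 0.48 to 1.00, adjusted p = 0.00618), or 1.67-fold. The authors' deposited table gave log2 fold changes of 1.34, 0.92 and 0.96 for mutant rescue, knockdown and rescue over control, with adjusted p-values of 1.66e-07, 1.41e-06 and 0.000165. Rescue and knockdown could not be told apart, at -0.01 (interval -0.27 to 0.25, adjusted p = 0.977). Mutant rescue lay 0.29 above knockdown (interval 0.03 to 0.55, adjusted p = 0.123), and rescue lay below mutant rescue by a difference of -0.30 (interval -0.56 to -0.03, adjusted p = 0.124). The order of the group means was therefore mutant rescue, knockdown, rescue and control, and of its neighbouring steps only that down to control passed the test. With each library left out in turn, the calls of rescue and mutant rescue over control held, at 0.61 to 0.86 and at 0.94 to 1.13. The call in knockdown was lost without knockdown replicate 1 and without knockdown replicate 2, where far fewer of all tested genes were called too. The log2 difference of MBOAT7 in knockdown lay between 0.73 and 0.76 in all 8 such fits.

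Over its 8 libraries MBOAT7 spanned a range of 1.13, wider than that of 91.8% of tested genes, whose median range was 0.54. Its direct neighbours on the chromosome were not called in these comparisons. Like the other neighbouring and overlapping genes named for the members, they were chosen after the member values were seen. TSEN34, a subunit of the transfer RNA splicing endonuclease, starts 56 bases away on the opposite strand, and its difference of knockdown from control was 0.19 (SE 0.30, adjusted p = 0.722) and of mutant rescue from control 0.11 (adjusted p = 0.804). Its libraries spread widely, as the SE shows beside that of 0.11 for MBOAT7. TMC4, 162 bases beyond the other end, had differences of 0.02 (SE 0.09, adjusted p = 0.912) and -0.07 (adjusted p = 0.596). The counting is not stated to use strand, but no gene of the annotation overlaps MBOAT7.

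The sum of monocyte and macrophage markers was also lowest in control. The summed level of 12 such markers (11 tested, among them CD14, CSF1R, LYZ and CD68) was 7910 and 9170 ppm in rescue, 16400 and 24100 ppm in mutant rescue, 11600 and 11100 ppm in knockdown and 2890 and 3470 ppm in control. LYZ alone, the lysozyme gene, held most of that sum. Without LYZ, left out after its values were seen, the sum was 899 and 912 ppm in rescue, 1030 and 934 ppm in mutant rescue, 953 and 952 ppm in knockdown and 528 and 584 ppm in control. The control libraries stayed lowest, and the mutant rescue libraries lay on either side of the knockdown libraries. Of the 11 tested markers, 6 rose in rescue, 9 in mutant rescue and 7 in knockdown against control, where 4.91%, 13.9% and 5.35% of all genes were called higher, and none of the 11 was called lower. Their median log2 differences from control were 0.68, 0.83 and 0.85 in that order of groups. In such bulk RNA, more cells of a type and more RNA per cell cannot be told apart. The part of these markers in the MBOAT7, MFSD2A and LPCAT3 results was not tested. The summed level of 20 interferon-stimulated genes had another order, at 10500 and 11700 ppm in rescue, 2760 and 2670 ppm in mutant rescue, 554 and 565 ppm in knockdown and 434 and 423 ppm in control.

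MFSD2A (chr1:39955112-39969968, plus strand, protein coding) had log2 levels of 9.00 and 8.73 in rescue, 8.87 and 8.60 in mutant rescue, 9.05 and 8.97 in knockdown and 8.51 and 8.53 in control. On this scale both control libraries were below the 6 others. As ppm, however, mutant rescue replicate 2 (24.1) lay below both control libraries (26.4 and 25.5). The 2 rescue libraries lay 0.26 apart and the 2 mutant rescue libraries 0.27, so that their values interleave with each other, and 1 rescue library lay among the knockdown libraries. From high to low, the group means were 9.01 ± 0.06 in knockdown, 8.86 ± 0.18 in rescue, 8.73 ± 0.19 in mutant rescue and 8.52 ± 0.02 in control (SD, n = 2 each). No neighbouring pair in this order passed the test, at -0.15 for rescue against knockdown (interval -0.45 to 0.16, adjusted p = 0.61), 0.13 for rescue against mutant rescue (interval -0.17 to 0.44, adjusted p = 0.527) and 0.21 for mutant rescue against control (interval -0.09 to 0.52, adjusted p = 0.267). The ends of the order did differ. Knockdown exceeded control by 0.49 (SE 0.13, interval 0.18 to 0.80, adjusted p = 0.0469), or 1.41-fold, rank 673 of the increases. Rescue was 0.35 above control (interval 0.04 to 0.65, adjusted p = 0.173), and mutant rescue was -0.28 from knockdown (interval -0.58 to 0.03, adjusted p = 0.182). Neither difference was called. In the authors' deposited table the knockdown change was 0.64 (adjusted p = 0.0103), and none of the other 5 comparisons of MFSD2A had an adjusted p under 0.05. The knockdown call was lost when any single control, knockdown or rescue library was left out, and kept without mutant rescue replicate 1 or 2. Leaving out a control, knockdown or rescue library also lowered the calls among all tested genes. The log2 difference of MFSD2A stayed between 0.45 and 0.53 throughout.

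The range of MFSD2A over the 8 libraries, 0.54, equalled the median range of tested genes. Its nearest tested neighbours on chromosome 1 are far away. MYCL, 52856 bases below, differed between knockdown and control by 0.12 (adjusted p = 0.573), and CAP1, 70265 bases above, by 0.05 (adjusted p = 0.809). A processed pseudogene, AL663070.1, overlaps MFSD2A and was not among the tested genes.

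LPCAT3 places arachidonic and linoleic acid on lysophosphatidylcholine and lysophosphatidylethanolamine, and it is a known target gene of the liver X receptors. The gene lies at chr12:6976186-7018510 on the minus strand. Its log2 level was 10.91 and 10.76 in rescue, 11.07 and 10.98 in mutant rescue, 10.87 and 10.82 in knockdown and 10.62 and 10.69 in control. The control libraries were the lowest of the 8 and the mutant rescue libraries the highest, with a range of 0.45. As ppm the control libraries stayed lowest (both 114), but mutant rescue replicate 2 (126) lay below both knockdown libraries (138 and 133) and rescue replicate 1 (131). Mutant rescue exceeded control by 0.37 (SE 0.09, interval 0.16 to 0.58, adjusted p = 0.0231), or 1.29-fold, and the authors' deposited table gave 0.47 with an adjusted p of 0.103. Knockdown and rescue stood 0.19 and 0.18 above control (adjusted p = 0.23 and 0.307), and rescue and knockdown had equal means of 10.84. The call of mutant rescue was lost without control replicate 1 (adjusted p = 0.0989), control replicate 2 (0.0523), knockdown replicate 1 (0.059), knockdown replicate 2 (0.0591) and mutant rescue replicate 1 (0.0562). It was also lost with centring on each library's median (0.31, adjusted p = 0.0597), when genes of any level were kept (adjusted p = 0.0506) and in a fit of those 2 groups alone (adjusted p = 0.0976). EMG1, a ribosome assembly methyltransferase gene, and C1S, a complement protease gene, overlap LPCAT3 in the annotation, so reads of these genes might not be told apart. Neither was called in mutant rescue against control, at -0.20 (adjusted p = 0.213) for EMG1 and -0.11 (adjusted p = 0.243) for C1S, while EMG1 fell in knockdown by 0.49 (adjusted p = 0.0264).

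MBOAT1 acylates lysophosphatidylserine and lysophosphatidylethanolamine, with a preference for oleic acid. Its log2 level (chr6:20102145-20212399, minus strand) was 6.01 and 5.85 in rescue, 5.82 and 5.49 in mutant rescue, 6.06 and 5.97 in knockdown and 6.29 and 6.16 in control. Here the control libraries were the highest of the 8, and the mutant rescue libraries the lowest. As ppm, knockdown replicate 1 (4.95) lay just above control replicate 2 (4.93). Mutant rescue differed from control by -0.57 (SE 0.14, interval -0.88 to -0.26, adjusted p = 0.0179), or 1.48-fold lower, the only decrease called among the 8 genes. Knockdown and rescue lay -0.21 and -0.30 from control (adjusted p = 0.343 and 0.24). The authors' deposited table gave -1.45 for mutant rescue over control with an adjusted p of 0.0522. Its fold changes were mostly larger than the differences between the normalized values, for MBOAT7 too (1.34 against 1.03). The gap was wider for the low genes MBOAT1 and MBOAT2, and the normalized values draw low levels together. The call was lost without control replicate 1 (adjusted p = 0.108), control replicate 2 (0.054) and mutant rescue replicate 2 (0.0667). Without mutant rescue replicate 1, by contrast, MBOAT1 differed more widely in mutant rescue against knockdown (-0.53) and in rescue against mutant rescue (0.44). All libraries gave -0.36 and 0.27 there (adjusted p = 0.107 and 0.203). The antisense transcript AL158198.1 overlaps MBOAT1 and was not tested.

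MBOAT2, a relative that acylates lysophosphatidylethanolamine and lysophosphatidylcholine, was near the floor of the table. Its log2 level (chr2:8852690-9003813, minus strand) was 2.37 and 2.40 in rescue, 2.31 and 2.32 in mutant rescue, 2.41 and 2.52 in knockdown and 2.33 and 2.34 in control, all within 0.21. These levels correspond to 0.31 to 0.42 ppm, below the filter. In a fit with no filter the difference of knockdown from control was 0.12 (SE 0.04, adjusted p = 0.18) and that of mutant rescue from knockdown -0.15 (SE 0.04, adjusted p = 0.116). The authors' deposited table gave log2 fold changes of 1.96 and -2.95 for these comparisons, each with an adjusted p of 1.0, so no change of MBOAT2 was detectable.

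For LPCAT1, LPCAT2 and LPCAT4 no difference between groups passed the test. LPCAT1, which makes the dipalmitoyl phosphatidylcholine of lung surfactant, lies at chr5:1456480-1523977 on the minus strand. Its log2 level was 7.70 and 7.39 in rescue, 7.52 and 8.10 in mutant rescue, 7.33 and 7.36 in knockdown and 7.77 and 7.44 in control. Mutant rescue replicate 2 was the highest of the 8 and lay apart from its replicate, and the knockdown libraries were the lowest. As ppm, rescue replicate 2 (11.5) lay below both knockdown libraries (11.9 and 12.1). The largest difference, mutant rescue against knockdown, was 0.46 (interval -0.01 to 0.94, adjusted p = 0.156). It was 0.75 when mutant rescue replicate 1 was left out. Knockdown differed from control by -0.26 (interval -0.74 to 0.21, adjusted p = 0.443).

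LPCAT2 makes platelet-activating factor as well as phosphatidylcholine in macrophages and other inflammatory cells, and lies at chr16:55508998-55586670 on the plus strand. It had log2 levels of 9.56 and 9.61 in rescue, 9.53 and 9.58 in mutant rescue, 9.78 and 9.92 in knockdown and 9.78 and 9.54 in control. The knockdown libraries were at or above all others, and the 2 control libraries lay 0.24 apart. Mutant rescue and rescue were -0.30 (adjusted p = 0.107) and -0.26 (interval -0.52 to -0.01, adjusted p = 0.24) from knockdown, and knockdown was 0.19 from control (interval -0.07 to 0.44, adjusted p = 0.303). Its range of 0.39 was the narrowest of the 7 tested members, and 25.0% of all tested genes had a narrower range.

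LPCAT4 (chr15:34358618-34367278, minus strand), which acylates lysophosphatidylethanolamine and lysophosphatidylcholine, had log2 levels of 6.99 and 6.83 in rescue, 7.23 and 7.44 in mutant rescue, 7.07 and 7.40 in knockdown and 7.14 and 7.19 in control. Both rescue libraries were below the 6 others. Rescue was -0.43 from mutant rescue (SE 0.15, interval -0.77 to -0.09, adjusted p = 0.0984), the widest gap between these arms among the 7 tested members. The authors' deposited table gave 0.79 for mutant rescue over rescue, the opposite orientation, with an adjusted p of 0.21. Against knockdown and control rescue stood at -0.33 and -0.25 (adjusted p = 0.274 and 0.371).

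**Figure D2:**
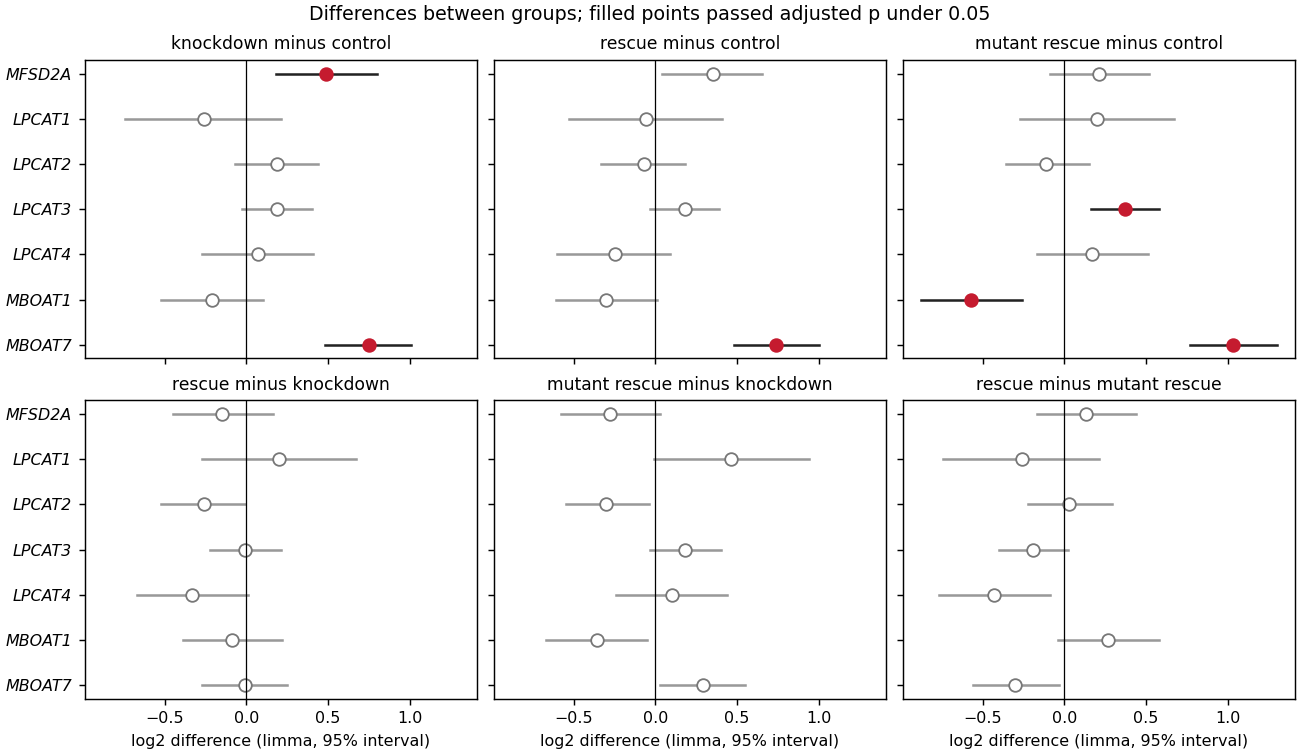
Log2 differences of the 7 tested genes in the 6 comparisons (points) with 95% intervals from limma (bars). Filled points passed an adjusted p under 0.05, which in the 3 comparisons without control is true of none, while MBOAT7 passed in all 3 comparisons with control.

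Which transcripts resembled MFSD2A was described by the root mean square (RMS) difference between profiles, each centred on its own mean over the 8 libraries. The 5 nearest tested genes were PARP6 (0.086), CCDC69 (0.086), SLC2A6 (0.088), SH3BP2 (0.089) and LRCH1 (0.093), against a median of 0.274 over all tested genes. PARP6 encodes a mono-ADP-ribosyltransferase and SLC2A6 a sugar transporter of the lysosome, and SH3BP2 is a signalling adaptor. SH3BP2 stood at 9.65 and 9.53 in rescue, 9.64 and 9.53 in mutant rescue, 9.71 and 9.69 in knockdown and 9.33 and 9.23 in control. In the nearer genes PARP6, CCDC69 and SLC2A6, the lowest library was instead mutant rescue replicate 2, at 7.54, 6.69 and 6.87. Among the other members LPCAT3 came closest to MFSD2A (0.182, rank 1040), and MBOAT7 ranked 8921 (0.321). For MBOAT7, looked up after its values were seen, the nearest were PROCR (0.064), WIPI1 (0.065), GABRA4 (0.091), ERMAP (0.091) and LY86 (0.103), with a median of 0.421 over all genes. PROCR encodes the endothelial protein C receptor, WIPI1 a phosphoinositide-binding protein of autophagy and LY86 a partner of the toll-like receptor relative CD180. All 8 points of a profile share the same normalization, and likeness over 4 groups of 2 is a description only.

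**Figure D3:**
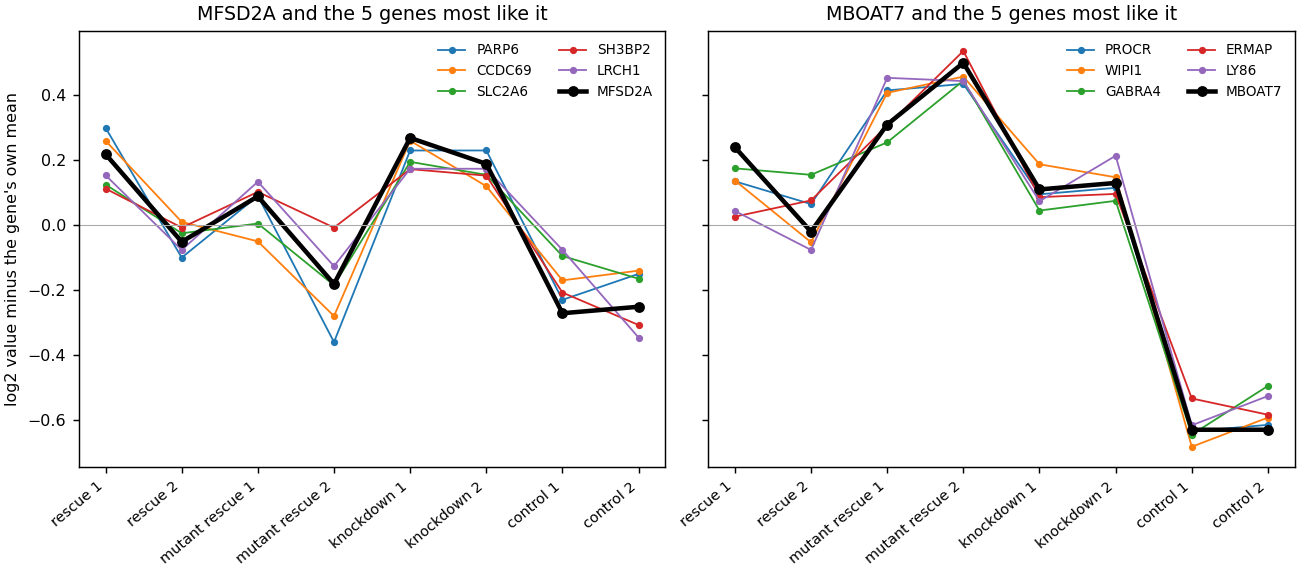
Centred log2 profiles over the 8 libraries of MFSD2A (left, black) and MBOAT7 (right, black) with the 5 tested genes nearest to each by RMS difference (colours). MFSD2A and its nearest genes lie below their own means in both control libraries, while MBOAT7 and its nearest genes are lowest in control and highest in a mutant rescue library.

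The wider pathway was read from 8 lists of related genes, with the median log2 difference of all tested genes at 0.01 in knockdown against control and 0.01 in mutant rescue against control. The members themselves had medians of 0.19 and 0.20. Lysophospholipid transport and receptor genes had 16 tested members, of which 3 rose and 0 fell in knockdown (18.8% called, against 12.8% of all tested genes), with a median of 0.32. PTAFR, the receptor of the platelet-activating factor that LPCAT2 makes, stood at 9.43 and 9.45 in knockdown against 8.17 and 8.39 in control, a difference of 1.16 (SE 0.14, adjusted p = 0.00196). LPAR6, a lysophosphatidic acid receptor, rose by 0.97 (SE 0.14, adjusted p = 0.00461), and ABCC1, a lipid and drug exporter, by 0.62 (SE 0.17, adjusted p = 0.0448). In mutant rescue against control 5 rose and 1 fell (37.5% called, against 24.9% of all tested genes), with PTAFR at 1.16, LPAR6 at 1.06 and LPAR2 at 0.85 among those higher and LPAR3 at -0.18 as the lower. In rescue against control 3 rose and 0 fell (18.8% called, against 7.18% of all tested genes). These were LPAR6 (0.75, adjusted p = 0.0153), LPAR2 (0.69, adjusted p = 0.0108) and ENPP2. PTAFR was lower in rescue than in knockdown (-0.72, SE 0.14, adjusted p = 0.0225) and than in mutant rescue (-0.72, adjusted p = 0.0165). ENPP2, the secreted enzyme autotaxin that makes lysophosphatidic acid, was higher in rescue than in every other group, by 0.80 against knockdown (adjusted p = 0.000933), 0.87 against mutant rescue (adjusted p = 0.00088) and 0.83 against control (adjusted p = 0.000544). In rescue against mutant rescue SPNS2 (-0.90), GPR132 (-0.47) and ABCC1 (-0.64) were lower too.

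Phospholipases A and lysophospholipases, which produce or break down the substrates of these acyltransferases, had 32 tested members, with 4 higher and 1 lower in knockdown and a median of 0.24. That is 15.6% called, near the 12.8% of all tested genes. PLA2G15, the lysosomal phospholipase, stood at 10.54 and 10.63 in knockdown against 9.92 and 9.83 in control, a difference of 0.71 (SE 0.09, adjusted p = 0.0036). LYPLAL1 (0.46), ABHD16A (0.35), which releases lysophosphatidylserine, and PLBD2 (0.99) were the others higher, and PAFAH1B3 (-0.52), a subunit of an enzyme that inactivates platelet-activating factor, was lower. In mutant rescue against control 11 rose and 2 fell (40.6% called, against 24.9% of all tested genes). The smallest adjusted p-values among those higher were those of PLA2G15 (1.05, adjusted p = 0.000238), LYPLAL1 (0.90) and ABHD16A (0.63), while the phospholipase A1 genes DDHD2 (-0.64) and DDHD1 (-0.46) were the lower. In rescue against control 3 rose (9.38% called, against 7.18% of all tested genes), ABHD16A (0.45), PLA2G15 (0.49) and PLA2G16 (0.43). Rescue differed from mutant rescue in 5 of the 32 (15.6%, against 10.5% of all tested genes), with DDHD1 (0.82, SE 0.09, adjusted p = 0.00215) and DDHD2 (0.53) higher and PLA2G15 (-0.57), LYPLAL1 (-0.49) and PAFAH2 (-0.45) lower. In rescue against knockdown limma called 0 of the 32, beside 4.24% of all tested genes. In mutant rescue against knockdown LYPLA2 (0.51) and LYPLAL1 (0.45) rose and DDHD1 fell (-0.70). That is 9.38% called, near the 11.3% of all tested genes.

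The other acyltransferases of glycerolipids and sterols were called in both directions across the comparisons. Of 16 tested, SOAT1, which esterifies cholesterol, was the only gene called in knockdown (6.25%, against 12.8% of all tested genes), at 10.05 and 10.16 in knockdown against 10.80 and 10.70 in control, a difference of -0.65 (SE 0.10, adjusted p = 0.00737). SOAT1 was higher in rescue than in knockdown (0.47, adjusted p = 0.0432) and than in mutant rescue (0.51, adjusted p = 0.0203), and lower in mutant rescue than in control (-0.69, adjusted p = 0.00263). Mutant rescue against control also had AGPAT1 (0.40) and DGAT1 (0.55) higher and GPAM (-0.58) and LCLAT1 (-0.45) lower, which with SOAT1 makes 31.2% called against 24.9% of all tested genes. TMEM68 was lower in rescue than in mutant rescue (-0.43) and control (-0.44), and AGPAT1 (0.37) and AGPAT2 (0.47) were higher in mutant rescue than in knockdown. SOAT1 and DGAT1 are also relatives of MBOAT7 in the MBOAT superfamily, where 4 genes outside the members were tested. In mutant rescue against control 2 of the 4 were called higher and 1 lower (75.0%, against 24.9% of all tested genes). These were DGAT1 and SOAT1, already counted above, and PORCN (0.58, higher), which acylates Wnt proteins.

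Genes that make the phospholipid classes on which the members act were read from a pair of lists. Of 20 genes of phosphatidylcholine and phosphatidylethanolamine synthesis, SLC44A2, a choline transporter-like protein, rose in knockdown (0.68, SE 0.12, adjusted p = 0.0107), and SLC44A2 (0.68), PISD (0.42), CEPT1 (0.41) and LPIN3 (0.67) rose in mutant rescue against control. This is 5% and 20% called, against 12.8% and 24.9% of all tested genes. CHKB was higher in mutant rescue than in knockdown (0.44). Of 16 genes of phosphatidylinositol and cardiolipin synthesis 1 rose and 2 fell in knockdown (18.8% called, against 12.8% of all tested genes). CDS2, which makes the precursor of phosphatidylinositol, rose by 0.53 (adjusted p = 0.0184), and PI4K2B fell (-0.50, adjusted p = 0.0302). PTPMT1, a mitochondrial phosphatase of cardiolipin synthesis, had 7.48 and 7.25 in rescue, 7.44 and 7.42 in mutant rescue, 7.30 and 7.34 in knockdown and 8.91 and 9.09 in control. It was thus below control in all 3 groups, at -1.64 (adjusted p = 9.81e-05), -1.57 (adjusted p = 0.000168) and -1.68 (adjusted p = 0.00048) for rescue, mutant rescue and knockdown. Mutant rescue against control had 4 higher and 2 lower in this list (37.5%, against 24.9%). Among the higher were CDS2 (0.45) and the phosphoinositide kinase genes PIP5K1A (0.89) and PIP4K2A (1.07), while PI4K2B (-0.46) was lower beside PTPMT1.

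Of 9 other MFSD genes, MFSD9 (0.37, adjusted p = 0.0413) rose in knockdown (11.1% called, against 12.8% of all tested genes). Mutant rescue against control had 4 higher (44.4%, against 24.9% of all tested genes called and 13.9% higher), MFSD1 (1.02), a lysosomal transporter, MFSD9 (0.49), MFSD11 (0.51) and MFSD12 (0.79), and MFSD1 was higher in mutant rescue than in knockdown (0.72, adjusted p = 0.0459). The MFSD genes had 0 calls in rescue against knockdown, rescue against mutant rescue and rescue against control. The shares of all tested genes called there were 4.24%, 10.5% and 7.18%, so 0 of 9 is no result about these genes. Among 13 transcription factors of lipid metabolism, PPARG (0.73, SE 0.10, adjusted p = 0.00436), ESRRA (0.68) and PPARD (0.45) rose in knockdown (23.1% called, against 12.8% of all tested genes). PPARG (0.78, adjusted p = 0.00147), ESRRA (0.55) and PPARD (0.37) were also higher in mutant rescue than in control. There 4 of the 13 were called higher and 1 lower (38.5%, against 24.9% of all tested genes). NR1H2, the beta form of the liver X receptor, was higher than control in mutant rescue (0.72, adjusted p = 0.00234) and rescue (0.45, adjusted p = 0.0375) and higher in mutant rescue than in knockdown (0.52, adjusted p = 0.0244). PPARA was lower in mutant rescue than in knockdown (-0.58) and control (-0.50), and PPARD was lower in rescue than in knockdown (-0.49) and mutant rescue (-0.41).

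These list counts moved when single libraries were left out, and so did the calls among all tested genes. In knockdown against control the calls among all tested genes fell without a control or knockdown library. They rose without a mutant rescue library. The counts below are therefore not particular to the lists. The genes called in knockdown against control, leaving out in turn replicates 1 and 2 of control and then 1 and 2 of knockdown, were 2, 2, 2 and 1 for transport and receptors, 2, 2, 1 and 0 for phospholipases, 1, 1, 1 and 1 for phosphatidylinositol and cardiolipin synthesis 1, 1, 0 and 0 for the lipid transcription factors, 1, 1, 0 and 0 for the other acyltransferases, 1, 0, 0 and 0 for phosphatidylcholine and phosphatidylethanolamine synthesis and 0 in each for the MFSD genes. Without either mutant rescue library they were 6 for transport and receptors and 10 for phospholipases. The PTAFR and PTPMT1 calls in knockdown held in all 8 fits that left out 1 library. In mutant rescue against control the phospholipases called were 6 and 8 without control replicate 1 and 2 and 10 to 14 otherwise. The other lists also had their lowest counts there without control replicate 1, at 4 for transport and receptors, 3 for phosphatidylinositol and cardiolipin synthesis, 2 for the transcription factors and 1 each for the other acyltransferases, phosphatidylcholine and phosphatidylethanolamine synthesis, MFSD and MBOAT superfamily genes. In rescue against mutant rescue the counts lay between 1 and 8 for phospholipases and between 1 and 6 for transport and receptors, highest without mutant rescue replicate 1 and lowest without rescue replicate 2. The calls of ENPP2 held in all 8 fits in each of its 3 comparisons. By contrast, the calls of PAFAH2 and PPARD in rescue against mutant rescue were lost whichever library was left out. So were those of PPARD and LPAR3 in mutant rescue against control.

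**Figure D4:**
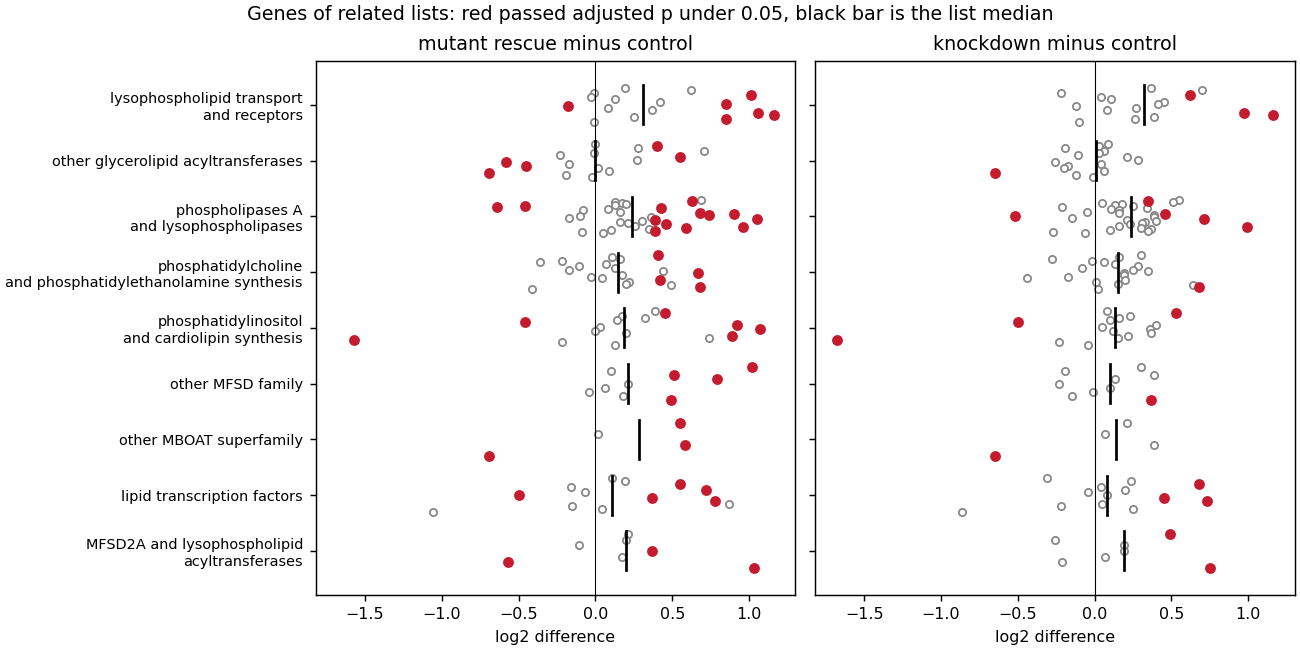
Log2 difference of each tested gene of the 8 related lists and of the 7 tested members (points), for mutant rescue minus control (left) and knockdown minus control (right). Red points passed an adjusted p under 0.05 and black bars are list medians. Transport and receptor genes have the highest median in knockdown, 0.32, and PTPMT1 is the lowest point in each panel.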

How the data were processed

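RNA of 8 MOLM13 libraries (2 per group) was analysed, with groups and replicate numbers from the sample titles. Per the file headers, the table of 35370 rows was written by getDiffExpression.pl of HOMER, and HOMER, kallisto, Trim Galore and the build GRCh38 are listed without versions or roles, per the submitters' processing notes. Each library has a column of log2 values, normalized by the authors before they deposited them, with low values drawn together. The authors' deposited log2 fold changes and p-values stand beside them. Counts are not used here, so depth is unknown and the precision is that of 2 libraries a group.

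A linear scale had been allowed for, but as the values were log2 they entered limma 3.58.1 (R 4.3.3) as deposited, with no pseudocount, in a model of the group means (4 residual degrees of freedom) with a mean trend. Genes needed 1 ppm of the linear total in 2 libraries, leaving 13030, and p-values were adjusted by Benjamini-Hochberg (threshold 0.05). The code was tested on simulated data. The members and lists were chosen with earlier results of these data known. Named genes are the members, IGF2BP2, the 5 genes nearest to MFSD2A and, per list and comparison, up to 3 called genes in each direction, or all where 5 or fewer were called. Positions come from GENCODE v29 and the nearest tested genes from it. Alternatives were the filter (none, 5 ppm), median centring, quantile normalization, no trend, only the compared groups, the replicate number as a block and leaving out each library.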

Additional observations from a re-analysis of the deposited data

How the results depend on the processing

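Over the 7 tested members and 6 comparisons no difference changed its direction in a called result under any alternative. With no filter on low values and with median centring 1 member instead of 2 was called in knockdown against control, because MFSD2A then had 0.49 (adjusted p = 0.0826) and 0.48 (adjusted p = 0.0528). With 1 library left out the members called were 0 to 2 in knockdown against control, 0 to 2 in mutant rescue against knockdown, 0 to 1 in rescue against mutant rescue and 1 to 3 in mutant rescue against control, 1 without either control library. MFSD2A in knockdown against control lay between 0.45 and 0.53. The same-numbered libraries did not deviate together in every pair of groups (correlations -0.0212 to 0.414), so the numbers were not taken as pairs. With the replicate block MFSD2A in knockdown against control was 0.49 (adjusted p = 0.0317), and no member's call changed. Among all genes the calls in mutant rescue against control were 1810 higher and 1431 lower, 1438 and 1891 with median centring, and 1574 and 1830 with quantile normalization. Those in mutant rescue against knockdown were 727 and 746, 378 and 938 with median centring, and 123 and 156 in a fit of these 2 groups alone. In a fit of rescue and mutant rescue alone 147 and 45 were called against 769 and 601 in all libraries. In knockdown against control 697 and 970 were called, 479 and 591 with no filter and 1180 and 1440 in the 2 groups alone. Leaving out 1 library moved 208 of the list counts by over 1.5 times, and 176 moved less. The calls among all tested genes moved in these fits as well, so such shifts are not particular to the members or lists. MBOAT1 did not pass the filter of 5 ppm, and no pseudocount was tried because the values were already log2. The cause of these shifts was not tested. Unknown depth limits MBOAT2, near the floor of the table.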
